A study of Mus musculus with 10 samples.

Results

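The genes described here encode the proteins of the mitochondrial ribosome and were taken by name. They are the 76 of 12575 gene symbols in the table that begin with Mrpl or Mrps followed by a digit. All 76 exceeded the low-expression filter, and all 76 had an entry in the GENCODE M21 annotation of the mouse assembly GRCm38. One of them, Mrpl23-ps1, is annotated as a processed pseudogene, a reverse-transcribed copy of an mRNA. Another, Mrps36, keeps its ribosomal name but is now known as a component of the 2-oxoglutarate dehydrogenase complex. Of the other 74, 49 belong to the large subunit and 25 to the small subunit, with Mrps30 and Mrps18a counted in the large subunit where their proteins sit.

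RNA of bulk cerebral cortex was sequenced from 5 BMAL1 aKO mice (Aldh1l1-Cre ERT2;Bmal1 fl/fl) and 5 Cre-;Bmal1 fl/fl control littermates. The study's figure legend names the tissue as frontal cortex. The Aldh1l1 promoter restricts the inducible Cre to astrocytes, so deletion of Bmal1, the core clock transcription factor, is limited to 1 of the many cell types in the tissue. Both groups carried the floxed alleles on a C57BL/6 background, both sexes were used, and both received tamoxifen at 2 months of age. The age at tissue collection is 4 months in the sample labels and 5 months in the study's text, which also gives 4 instead of 5 BMAL1 aKO animals for this experiment. In bulk tissue, fewer cells of a type and less RNA per cell cannot be told apart.

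The mitochondrial ribosome is built from parts of both genomes of the cell. Its proteins are encoded in the nucleus and imported, while its ribosomal RNAs, 12S and 16S, are transcribed from mitochondrial DNA as mt-Rnr1 and mt-Rnr2. It translates the mRNAs of mitochondrial DNA, all of which encode subunits of the respiratory chain and ATP synthase. Many of its proteins descend from bacterial ribosomal proteins and others were added during the evolution of mitochondria. The comparison of genotypes therefore asks whether the nuclear-encoded parts of this machine differed after astrocyte Bmal1 deletion, and the comparison across libraries asks how its level varied with that of the mitochondrial transcripts.

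BMAL1 and CLOCK bind the E-box CACGTG, and transcription of many mitochondrial genes depends on NRF1 and on ETS-family factors such as GABP. RefSeq promoter windows on GRCm38.p6, 250 bases before to 50 bases after each gene's start, matched 67 of the 76 symbols. CACGTG was present in the windows of 5 of these 67 genes (7.46%), against 11.8% of the 9727 genes of the table with a window and 8.09% of all 27025 genes with one. The 5 stretches are shown because they carry the letters the deleted factor binds, with the E-box in capitals, each 5′ to 3′ on the strand of its gene.
Mrpl2, chr17:46646068-46646117, plus strand: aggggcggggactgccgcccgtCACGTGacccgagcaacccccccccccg
Mrpl20, chr4:155802823-155802872, plus strand: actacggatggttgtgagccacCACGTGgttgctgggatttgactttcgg
Mrpl36, chr13:73330944-73330993, plus strand: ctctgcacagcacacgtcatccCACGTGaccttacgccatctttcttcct
Mrpl37, chr4:107067001-107067050, minus strand: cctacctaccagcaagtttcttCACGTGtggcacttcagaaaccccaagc
Mrps18c, chr5:100798574-100798623, plus strand: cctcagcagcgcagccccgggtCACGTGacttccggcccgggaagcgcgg
The element lay 33 bases before the start in Mrpl20, 43 bases in Mrpl36, 162 bases in Mrpl37 and 163 bases in Mrps18c, and between 131 and 147 bases before the 3 annotated starts of Mrpl2. None of these 5 genes passed the test between genotypes, and their log2 fold changes ran from -0.08 for Mrpl37 to 0.25 for Mrpl36.

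The other motifs were searched on both strands in the same windows. The ETS core CCGGAAG occurred in 24 of the 67 genes (35.8%), against 19.5% of the genes of the table and 9.93% of all genes. The NRF1 motif, GCGCA and GCGC with any 1 base between them, occurred in 13 (19.4%), against 11.4% and 5.19%. The YY1 motif, AAGATGG directly followed by CGG, occurred in 5 (7.46%), against 2.44% and 0.995%. These are matches of letters, and binding was not measured.

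The level of the targeted gene could not serve as a check of the genotype in bulk cortex. Arntl, the gene symbol of Bmal1, had 34.2 ± 2.25 CPM in Cre- against 34.5 ± 2.93 CPM in BMAL1 aKO (SD, n = 5 each), counted over the whole gene in all cells. CPM give a gene's reads scaled by the total of its library. Fabp7, a fatty acid binding protein of astrocytes, separated every library by its label, from 9.94 to 19.9 CPM in Cre- and from 90.8 to 237 CPM in BMAL1 aKO (log2 fold change 3.52, SE 0.22, adjusted p = 7.43e-06 with limma). Aldh1l1 itself did not pass the test (log2 fold change -0.07, adjusted p = 0.825 with limma). Libraries held 21844770 to 48295715 reads. Genes of mitochondrial DNA took from 6.19% to 19.9% of the reads, and both ends of this range were Cre- libraries.

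No mitochondrial ribosomal protein gene passed the test for a difference between BMAL1 aKO and Cre- cortex. Of the 76 genes, 0 passed an adjusted p of 0.1 with limma, where 0.159% of all 12573 genes tested passed as higher and 0.00795% as lower. An unadjusted p below 0.05 was reached by 8 of the 76 (10.5%), and by 11.8% of all genes. With voomWithQualityWeights, the test of the study, 0 of the 76 passed, where 29 of all genes did, and 9 members (11.8%) had an unadjusted p below 0.05, beside 10.4% of all genes. Fold changes here are differences of log2(CPM + 0.5) between BMAL1 aKO and Cre-, and the smallest adjusted p of any member was 0.347. The fit weighted libraries by how well they matched their group, with the least weight on Cre- replicate 3 (0.188) and the most on Cre- replicate 1 (4.04). In 1 of 27 alternative settings, chosen after the data were seen, members did pass. With BMAL1 aKO replicate 3 left out and weights estimated by REML, 3 of 76 were higher (3.95%), Mrpl52, Mrps24 and Mrpl27, where 2.7% of all genes were higher.

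The members as a set lay slightly above the rest of the transcriptome. Their median log2 fold change was 0.06, beside -0.04 over all genes tested, and 55 of the 76 (72.4%) had a value above 0, beside 39.0% of all genes. Counting CPM over the reads outside mt- genes moved both medians up together, to 0.10 for the members and -0.00053 for all genes. The summed level of the 76 genes was 1566, 1564, 1547, 1516 and 1466 CPM in Cre- replicates 1 to 5 and 1482, 1583, 1559, 1667 and 1718 CPM in BMAL1 aKO replicates 1 to 5. BMAL1 aKO replicates 4 and 5 were above every Cre- library and BMAL1 aKO replicate 1 was below 4 of them, so the groups overlapped. The sums averaged 1532 ± 41.8 CPM in Cre- against 1602 ± 93.0 CPM in BMAL1 aKO (SD, n = 5 each), a log2 ratio of 0.06. Both subunits had like values, with a median log2 fold change of 0.06 for the 49 large-subunit genes and 0.06 for the 25 small-subunit genes. By the list of names used, 43 genes with a bacterial counterpart had a median of 0.06 and the 31 others 0.05. The list counted Mrps24 and Mrps28 among the 31, so the split is approximate.

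**Figure D1:**
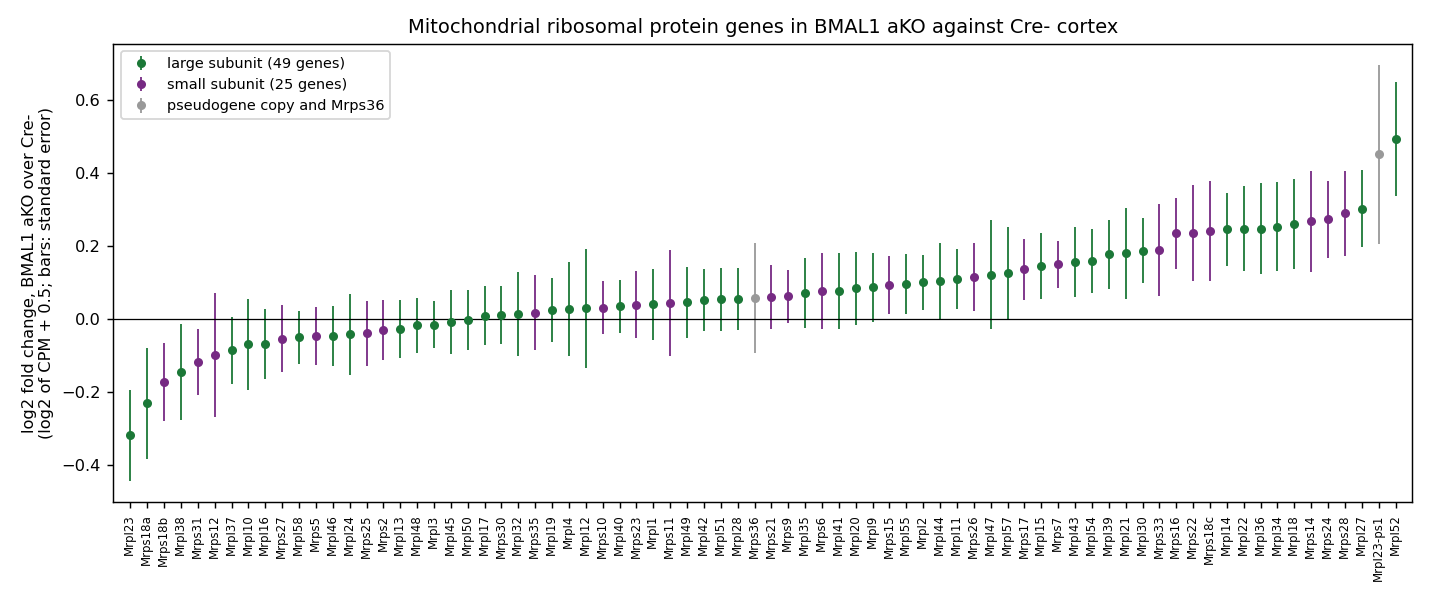
Log2 fold change of each of the 76 mitochondrial ribosomal protein genes, BMAL1 aKO over Cre- (vertical axis, on log2(CPM + 0.5), with its standard error as a bar), ordered by value and coloured by subunit. The values run from -0.32 for Mrpl23 to 0.49 for Mrpl52, with the small-subunit genes between -0.17 and 0.29, and none passed the test.

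Mrpl52, a large-subunit protein found only in mitochondrial ribosomes, had the highest fold change. Its level was 16.9, 26.8, 16.9, 10.9 and 16.6 CPM in Cre- replicates 1 to 5 and 19.9, 19.0, 20.9, 27.8 and 31.2 CPM in BMAL1 aKO replicates 1 to 5. Cre- replicate 2, the library with the highest share of mt- reads, lay among the BMAL1 aKO values, and the other 4 Cre- libraries lay below all of them. The log2 fold change was 0.49 (SE 0.16, adjusted p = 0.347 with limma), and an exact permutation test (two-sided) on the difference of mean log2 values gave p = 0.103 (n = 5 in each group). The gene lies on chromosome 14 at 54426909 to 54429756, 1855 bases before Mmp14 on the same strand. Mmp14, a membrane-bound matrix metalloproteinase, did rise in BMAL1 aKO (log2 fold change 1.35, SE 0.22, adjusted p = 0.0480 with limma).

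Mrps16 and Mrps7 of the small subunit had no overlap between the groups, both with bacterial counterparts. Mrps16 was 10.7, 10.2, 9.91, 8.60 and 9.38 CPM in Cre- replicates 1 to 5 and 11.5, 11, 10.8, 13.3 and 13.3 CPM in BMAL1 aKO replicates 1 to 5. Every BMAL1 aKO library was above every Cre- library, with a log2 fold change of 0.24 (SE 0.10, adjusted p = 0.374 with limma). Mrps7, a protein of the head of the small subunit, was 24.4, 26.0, 26.0, 23.4 and 23.5 CPM in Cre- and 26.4, 26.7, 26.8, 28.4 and 26.2 CPM in BMAL1 aKO, in the same order of replicates. The gap between its groups was narrow, and its log2 fold change was 0.15 (SE 0.06, adjusted p = 0.390 with limma). Groups of 5 without overlap always give p = 0.00794 in the same exact permutation test, the smallest value that 5 against 5 libraries allow. For both genes this p therefore only restates the lack of overlap, and it is not adjusted over genes. Mrps16 and Mrps7 are 2 of 76 genes with every BMAL1 aKO library higher. In 0 of 76 was every one lower, where 0.62% of all genes had every one higher and 0.382% every one lower. Reads of the Mrps7 locus are uncertain, since its exons share 127 bases with Gga3 and 119 bases with Mif4gd on the opposite strand and the library kit did not mark strand.

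Among the other members with the highest values, Mrpl27, a protein next to the peptidyl transferase centre in bacteria, went from 18.4 ± 3.18 CPM in Cre- to 22.2 ± 3.45 CPM in BMAL1 aKO (SD, n = 5 each). Its log2 fold change was 0.30 (SE 0.11, adjusted p = 0.351 with limma). Mrps24, a small-subunit protein at the mRNA entry, went from 9.28 ± 1.10 to 11.9 ± 1.36 CPM, with a log2 fold change of 0.27. Its exons share 226 bases with Urgcp on the same strand. Mrps28 (0.29) and Mrps14 (0.27), also of the small subunit, and the pseudogene Mrpl23-ps1 (0.45) completed the 6 highest. The 6 lowest were Mrpl23 (-0.32), Mrps18a (-0.23), Mrps18b (-0.17), Mrpl38 (-0.14), Mrps31 (-0.12) and Mrps12 (-0.10), with adjusted p values of 0.360 to 0.832 with limma. Shorter coding sequences went with higher fold changes, with r = -0.40 between log2 coding length and log2 fold change over the 75 coding members. The same r was -0.33 over 12021 coding genes. Both are correlations over genes, and genes do not replicate each other.

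Most of the members listed by role had fold changes nearer to 0. Mrpl3 and Mrpl2, which line the region of the peptidyl transferase centre, had log2 fold changes of -0.01 and 0.10, and Mrpl3 was the most abundant member in CPM, with 49.6 ± 2.92 in Cre- against 49.1 ± 2.93 in BMAL1 aKO (SD, n = 5 each). In the stalk that recruits translation factors, Mrpl12, Mrpl10 and Mrpl11 had 0.03, -0.07 and 0.11. Mrpl16, which helps to position tRNA in bacterial ribosomes, had -0.07 and Mrpl24, at the exit tunnel, had -0.04. Mrpl45, which anchors the ribosome at the inner membrane, had -0.01, Mrpl44, an RNase III-like protein, had 0.11, and Mrpl58, which releases stalled peptides, had -0.05. In the small subunit, Mrps2, Mrps5, Mrps11 and the RNA-binding Mrps27 had -0.03, -0.05, 0.04 and -0.05, while Mrps22, a protein without a bacterial counterpart, had 0.24, as high as Mrps16. Of the genes of this paragraph, Mrpl2, Mrpl11, Mrpl44, Mrps16 and Mrps22 kept their sign in all 26 alternative fits, and each of the others took the other sign in at least 2 of them.

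Levels of different members are comparable only per length. Per kb of annotated exon, the mean over the 10 libraries was highest for Mrpl41 (49 CPM per kb), Mrps21 (31.0), Mrpl34 (27.3) and Mrpl27 (20.6). It was lowest for Mrps30 (2.14), Mrps35 (2.17), Mrpl17 (2.18) and Mrpl15 (2.29). The divisor is the length of all annotated exons, so genes with long or little-used annotated exons rank low. Mean CPM ran from 3.76 to 49.3 with a median of 19.5, against 27.1 over all genes, and the median coefficient of variation over the 10 libraries was 13.2% against 16.4%. A member had 44 to 2455 reads in a library, with a median of 700 reads, for which counting alone gives a coefficient of variation of 3.78%.

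The summed mitochondrial transcripts varied much more than the summed transcripts of the ribosomal protein genes. The 16 measured mt- genes summed to 128448 ± 53313 CPM in Cre- against 161624 ± 16009 CPM in BMAL1 aKO (SD, n = 5 each). The highest library had 3.21 times the lowest, against 1.17 times for the sum of the 76 ribosomal protein genes. Taken singly, the highest library had 1.16 times the lowest for Mrpl3, 2.71 times for Mrps12 and 6.34 times for Mrpl23-ps1. All 16 mt- genes had a log2 fold change above 0, from 0.04 for mt-Co1 to 0.54 for mt-Co2, and 0 of 16 passed the test. The 12S rRNA mt-Rnr1 was 5078 ± 1925 CPM in Cre- against 6165 ± 885 CPM in BMAL1 aKO (log2 fold change 0.18, adjusted p = 0.622 with limma). The 16S rRNA mt-Rnr2 was 7267 ± 3179 and 8646 ± 1498 CPM (SD, n = 5 each, log2 fold change 0.22, adjusted p = 0.608 with limma).

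Whether the summed level of the ribosomal protein genes followed the mitochondrial transcripts depended on the denominator. With all reads as the denominator, the Pearson r of log2 summed CPM of the members with log2 summed mt- CPM was 0.29 over the 10 libraries and Spearman's rho was 0.32. With the members' mean log2(CPM + 0.5) in place of their sum, r was 0.46, and without Cre- replicates 3 and 4 the r of the sum was 0.32. With the group means removed, the r of the sum was 0.09. With the reads outside mt- genes as the denominator, the same r was 0.77 and rho was 0.76, and with group means removed r was 0.70. The mt- reads are part of the total of the first measure, so more of them lower the CPM of every other gene. On the second measure, the members summed to 1649 in Cre- replicate 3, the library with the fewest mt- reads, to 1952 in Cre- replicate 2, the library with the most, and to 2083 in BMAL1 aKO replicate 5. The median of all genes had r = -0.41 on the first measure and -0.02 on the second, where the members' median was 0.28 and 0.58.

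**Figure D2:**
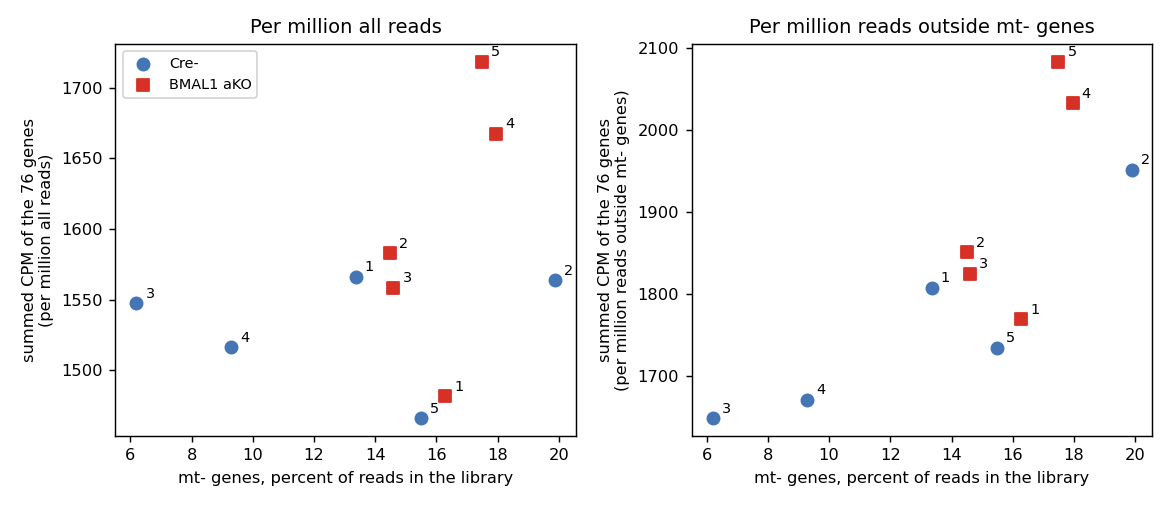
Summed level of the 76 genes (vertical axes, CPM) against the share of reads from mt- genes (horizontal axes, percent), 1 point for each library numbered by replicate. With all reads as the denominator (left) the points show r = 0.29, and with the reads outside mt- genes (right) the level rises with the mt- share, with r = 0.77.

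Single members were related to the mitochondrial transcripts in opposite directions. The r of a gene's log2(CPM + 0.5) with the log2 mt- sum ran from -0.95 to 0.93 among the 76 members. It was at least 0.7 for 20 members (26.3%), against 13.9% of all genes, and at most -0.7 for 11 members (14.5%), against 35.7% of all genes. The remaining 45 lay between. The 20 genes summed to 299 CPM in Cre- replicate 3 and 470 CPM in Cre- replicate 2, while the 11 genes summed to 309 and 163 CPM in the same libraries. Both sets were chosen by this r, so their sums are a description.

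**Figure D3:**
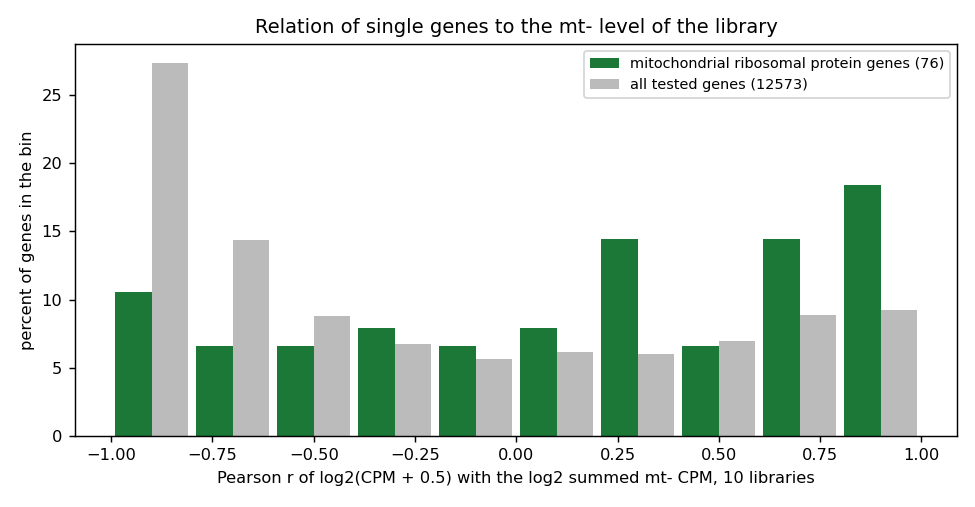
Share of genes (vertical axis, percent) in bins of the Pearson r between a gene's log2(CPM + 0.5) and the log2 summed mt- CPM of the library (horizontal axis, 10 libraries), for the 76 mitochondrial ribosomal protein genes and all 12573 genes tested. All genes are most frequent below -0.8, with 27.4% against 10.5% of the members. The members are most frequent above 0.8, with 18.4% against 9.23% of all genes.

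Since the 20 and the 11 genes were chosen by r in these libraries, their values under other ways of computing it are a description. All 20 genes kept an r above 0 and all 11 an r below 0 with the reads outside mt- genes as denominator, where the 20 had at least 0.80 and the 11 at most -0.61. The same was true with the group means removed, where the bounds were 0.64 and -0.65. Without Cre- replicates 3 and 4, the libraries with the fewest mt- reads, 19 of 20 and 11 of 11 kept their sign, the exception being Mrpl32 (-0.05), but only 9 of 20 and 7 of 11 remained past 0.7 or -0.7. Some large values rested on those libraries, and r went from 0.91 to 0.30 for Mrpl1, from 0.89 to 0.01 for Mrps35 and from -0.89 to -0.09 for Mrpl10 without them.

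At the positive end were Mrpl23-ps1 (r = 0.93, rho = 0.78), Mrpl1 (r = 0.91, rho = 0.59) and Mrpl18 (r = 0.90, rho = 0.93). Their permutation p for r, adjusted over all genes, were 0.00167, 0.00876 and 0.000945, and for rho 0.0340, 0.149 and 0.00498. Mrpl18, which binds 5S rRNA in bacteria, was 25, 32.5, 17.9, 19.7 and 25.9 CPM in Cre- replicates 1 to 5 and 27.3, 24.7, 26.3, 35.4 and 36.5 CPM in BMAL1 aKO replicates 1 to 5. The lowest libraries were those with the fewest mt- reads, and without them r was 0.84. The exons of Mrpl18 share 141 bases with Tcp1 on the opposite strand. At the negative end were Mrpl4 (r = -0.95, rho = -0.87), Mrps18a (r = -0.95, rho = -0.95) and Mrps12 (r = -0.93, rho = -0.93). Their adjusted permutation p for r were 0.00321, 0.000794 and 0.000794, and for rho 0.0131, 0.00262 and 0.00471. Mrps12, a protein of the decoding centre, was 17.8, 11, 29.8, 28.3 and 13.5 CPM in Cre- and 15.5, 20.5, 17.3, 13.7 and 13.3 CPM in BMAL1 aKO, in the same order. Its highest libraries were the same Cre- replicates 3 and 4, and without them r was -0.87. Mrpl4, a protein of the exit tunnel, reached 47.9 CPM in Cre- replicate 3 against 20.6 to 34.9 CPM in the other 9 libraries. Without Cre- replicates 3 and 4, the r of Mrpl4 was -0.62. Its log2 fold change was 0.03 in the weighted fit and -0.20 as the plain difference of mean log2 values, and it took the other sign in 11 of 26 alternative fits.

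Both ends held proteins of both subunits. The 20 genes with positive r held 14 of the large and 5 of the small subunit with the pseudogene, and the 11 with negative r held 8 and 3. By the list of names used above, a bacterial counterpart was present for 9 of the 20 and 9 of the 11. Their base composition was also summarised. The median GC content of the coding transcript was 48.4% for the 19 coding genes with positive r, 49.8% for the 45 between and 55.1% for the 11 with negative r. Over the 75 coding members, GC content and r with the mt- sum had a correlation of -0.33, and over 12021 coding genes it was -0.59. The part of base composition in the relation was not tested. Mean pairwise r between members was 0.12, against 0.06 between all genes.

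The 3 paralogs of bacterial ribosomal protein S18 were also related to the mt- sum in opposite directions. Mrps18a is a protein of the large subunit, while Mrps18b and Mrps18c belong to the small subunit. Mrps18a was 18.9, 13.7, 34.1, 27.7 and 17.2 CPM in Cre- replicates 1 to 5 and 16.6, 22.4, 17.4, 14.0 and 12.9 CPM in BMAL1 aKO replicates 1 to 5. Across libraries its level fell with the mt- share, with r = -0.95 (permutation p = 4e-05, adjusted over all genes 0.000794) and rho = -0.95 (permutation p = 0.0001, adjusted 0.00262). Mrps18c was 13.3, 20.7, 9.69, 10.3 and 12.1 CPM in Cre- and 12.8, 14.4, 13.2, 17.6 and 19.1 CPM in BMAL1 aKO, in the same order. It rose with the mt- share, with r = 0.83 (permutation p = 0.00099, adjusted 0.00429) and rho = 0.77 (permutation p = 0.0120, adjusted 0.0377). Large r were frequent, at most -0.7 in 35.7% and at least 0.7 in 13.9% of all genes. Mrps18b was between 5.73 and 8.60 CPM in all libraries and had r = -0.60 (permutation p = 0.0645, adjusted 0.109) and rho = -0.66 (permutation p = 0.0432, adjusted 0.0954). Without Cre- replicates 3 and 4, r was -0.83, -0.64 and 0.81 for Mrps18a, Mrps18b and Mrps18c, and with the group means removed -0.93, -0.51 and 0.80. Only the value of Mrps18b moved appreciably when reads outside mt- genes were the denominator, to -0.31, with -0.93 and 0.87 for the other two. Between genotypes, the 3 genes had log2 fold changes of -0.23, -0.17 and 0.24, and none passed the test (adjusted p of 0.550, 0.536 and 0.496 with limma).

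**Figure D4:**
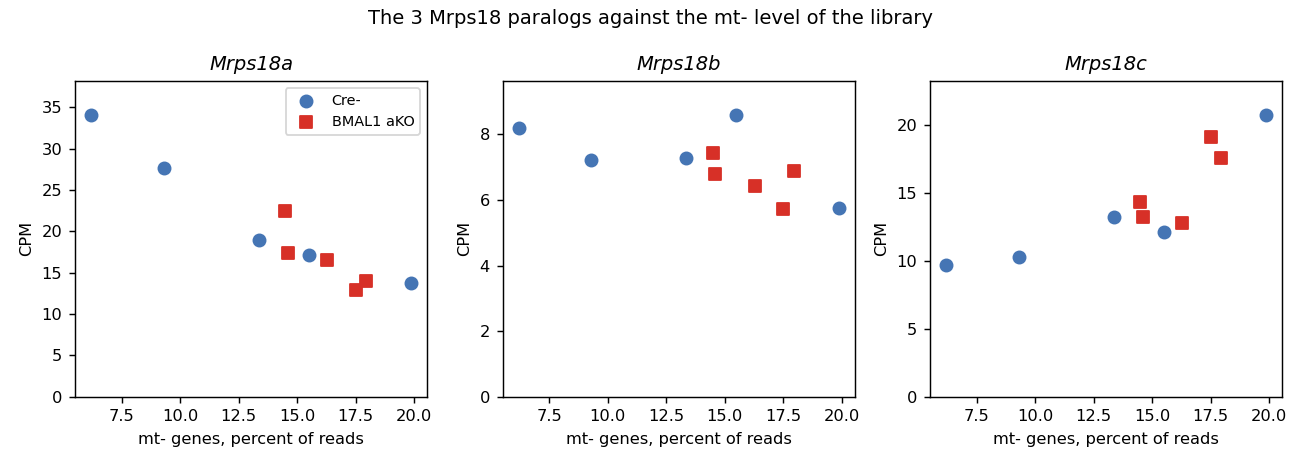
Level of Mrps18a, Mrps18b and Mrps18c (vertical axes, CPM, from 0) against the share of reads from mt- genes (horizontal axes, percent), 1 point for each library. Mrps18a spans 34.1 to 12.9 CPM and is highest where the mt- share is lowest, while Mrps18c spans 9.69 to 20.7 CPM and is highest where the mt- share is highest.

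Because these related genes stood at opposite ends, the last 100 bases before the annotated start of each are given on the strand of the gene, with matches to the searched motifs in capitals.
Mrps18a, chr17:46110904-46111003, plus strand: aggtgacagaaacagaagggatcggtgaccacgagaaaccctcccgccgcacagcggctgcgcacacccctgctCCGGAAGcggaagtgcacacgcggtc
Mrps18b, chr17:35916441-35916540, minus strand: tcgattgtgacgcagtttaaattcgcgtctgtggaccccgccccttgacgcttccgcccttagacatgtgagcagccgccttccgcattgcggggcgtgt
Mrps18c, chr5:100798659-100798758, plus strand: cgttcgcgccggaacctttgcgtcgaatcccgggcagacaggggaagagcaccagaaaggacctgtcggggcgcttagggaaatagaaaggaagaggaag
The single match in these stretches was the ETS core in Mrps18a. In the full windows the ETS core occurred in all 3 genes, on either strand, and the E-box of Mrps18c shown above lies farther upstream.

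Mrpl23, a protein at the exit tunnel, and its pseudogene Mrpl23-ps1 also sat at opposite ends, but their reads cannot be told apart with confidence. A stretch of 540 bases of the 5-exon Mrpl23 transcript was identical to bases 2 to 541 of the 580-base Mrpl23-ps1, and it crossed all 4 exon joins. The stretch around the join of exons 2 and 3 is printed as an example and reads the same in both, with exon 3 in capitals.
Mrpl23 and Mrpl23-ps1: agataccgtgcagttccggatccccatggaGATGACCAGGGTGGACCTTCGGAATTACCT
Mrpl23 lies on chromosome 7 at 142532686 to 142540747 and Mrpl23-ps1 on chromosome 2 at 74591330 to 74591909. Mrpl23 was 16.3, 11.9, 17.9, 19.8 and 15.5 CPM in Cre- replicates 1 to 5 and 13.1, 18.5, 12.1, 12 and 11 CPM in BMAL1 aKO replicates 1 to 5. Mrpl23-ps1 was 3.31, 5.72, 1.04, 1.34 and 3.39 CPM in Cre- and 3.02, 3.59, 3.45, 6.10 and 6.59 CPM in BMAL1 aKO, in the same order. The 2 Cre- libraries with the least Mrpl23-ps1, replicates 3 and 4, had the most Mrpl23 of their group. With the mt- sum, r was -0.73 for Mrpl23 and 0.93 for Mrpl23-ps1. Between genotypes, Mrpl23 had a log2 fold change of -0.32 (SE 0.12, adjusted p = 0.360 with limma) and Mrpl23-ps1 0.45 (SE 0.25, adjusted p = 0.483 with limma).

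A second pair with opposite relations was Mrps11 and Mrpl46, which lie head to head on chromosome 7 and share 173 exonic bases on opposite strands. Mrps11 had 7.87, 6.78, 12.9, 11.3 and 7.18 CPM in Cre- replicates 1 to 5 and 5.86, 10.5, 8.80, 6.87 and 9.14 CPM in BMAL1 aKO replicates 1 to 5, with r = -0.80. Mrpl46 had 22.1, 22.6, 17.4, 18.8 and 19.8 CPM in Cre- and 20.3, 20.3, 19.6, 19.3 and 23.1 CPM in BMAL1 aKO, with r = 0.73. In Cre- replicates 3 and 4, Mrps11 was at its highest and Mrpl46 at its lowest of the group. Without these libraries, r was -0.43 and 0.27. Neither gene passed the test between genotypes, with log2 fold changes of 0.04 and -0.04. In all, 16 members share exonic bases with a gene of the table on the opposite strand, 4 of the 20 genes with positive r and 2 of the 11 with negative r, and for these the assignment of reads is uncertain.

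**Figure D5:**
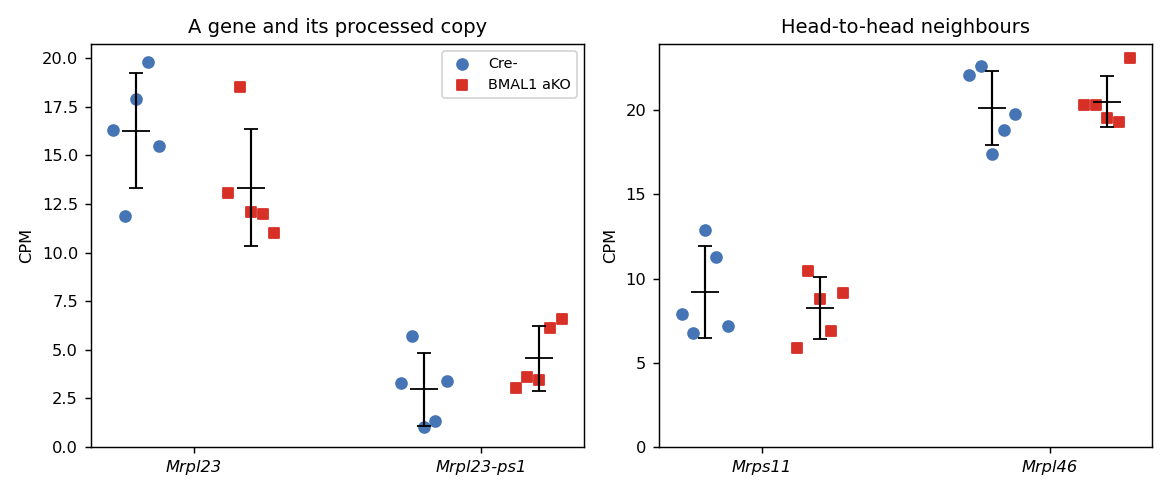
Level (vertical axes, CPM, from 0) of Mrpl23 and its processed copy Mrpl23-ps1 (left) and of the head-to-head neighbours Mrps11 and Mrpl46 (right), 1 point for each library in order of replicate, with the mean and SD of each group of 5. The groups overlap for all 4 genes, and within Cre- the libraries that are high in 1 gene of a pair are low in the other.

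Other lists of genes of the mitochondrial translation pathway held no called gene either. Of 5 ribosomal proteins with other names, 0 passed the test, and their median log2 fold change was 0.19. Chchd1, a small-subunit protein, was 17.9 ± 4.04 CPM in Cre- against 23.2 ± 3.44 CPM in BMAL1 aKO (SD, n = 5 each, log2 fold change 0.32, adjusted p = 0.351 with limma), and Dap3, a GTP-binding small-subunit protein, had 0.20. Of 13 initiation, elongation and release factors 0 passed, with a median of -0.02 and with Tufm, the elongation factor that delivers tRNA, at -0.14. Of 24 assembly and rRNA modification factors 0 passed, with a median of -0.02 and with Malsu1 at 0.33. Of 17 mitochondrial aminoacyl-tRNA synthetases 0 passed, with a median of -0.05. Of 14 genes of mitochondrial transcription and RNA handling 0 passed, and the values ran from -0.25 for Tfb2m, a transcription factor of mitochondrial DNA, to 0.54 for Slirp, an RNA-binding protein. Of 4 membrane insertion genes and 12 regulators of mitochondrial biogenesis 0 passed, with medians of -0.01 and -0.10, and Ppargc1a, the coactivator PGC-1α, had -0.19.

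The same lists were set against the mt- sum. Median r was -0.72 for the synthetases, -0.59 for the assembly factors, -0.71 for membrane insertion and -0.51 for the biogenesis regulators, beside 0.28 for the members and -0.41 for all genes. It was 0.05 for mitochondrial transcription and RNA handling, 0.28 for the ribosomal proteins with other names and 0.34 for the initiation, elongation and release factors. With the reads outside mt- genes as the denominator, these 7 medians were -0.51, -0.22, -0.33, -0.14, 0.39, 0.56 and 0.65, in the same order. The 0.65 is the r of Mrpl58, a gene that is also a member. With all reads, it was 0.61 for 78 nuclear genes of the respiratory chain and 0.61 for 122 genes named as cytosolic ribosomal proteins, which included 29 annotated pseudogenes and 10 S6 kinases. With the reads outside mt- genes, median r was 0.76 for the respiratory chain genes and 0.75 for the cytosolic ribosomal protein genes, both above the 0.58 of the members. The respiratory chain genes had a median log2 fold change of 0.20 and the cytosolic ribosomal protein genes 0.25, and 0 of 78 and 0 of 122 passed the test.

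The summed markers of several cell types were also set against the mt- sum, where the median r of all single genes was -0.41. The 8 microglial markers summed to 220 to 349 CPM in Cre- against 220 to 301 CPM in BMAL1 aKO, with r = -0.81, and 9 striatal markers to 509 to 2146 and 740 to 1293 CPM, with r = -0.61. Both sums were highest in Cre- replicate 3 (349 and 2146 CPM), the library with the fewest mt- reads. The 8 astrocyte markers summed to 6286 ± 582 CPM in Cre- against 7215 ± 613 CPM in BMAL1 aKO (SD, n = 5 each), with r = 0.55, and the 8 neuronal markers had r = -0.40. The sums of 8 oligodendrocyte and 7 endothelial markers had r = -0.25 and -0.29. The 3 measured choroid plexus markers summed to 18.0 to 929 CPM in Cre- against 13.8 to 1061 CPM in BMAL1 aKO, with r = 0.10. No marker was at 0 in any library. The part of these cell types in the levels of the ribosomal protein genes was not tested.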

How the data were processed

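Cortical RNA of 10 mice was amplified from 10 ng with a SMARTer kit that does not mark strand. The authors aligned reads to GRCm38 with STAR 2.5.1a, assigned them to Ensembl genes with featureCounts 1.4.6-p5, and deposited CPM without TMM scaling. Library totals of 21844770 to 48295715 reads were recovered from the steps between values. Groups follow the genotype labels, and p-values measure the spread between these 10 libraries. The members and lists were chosen with earlier results of these data known. A gene had to exceed 1 CPM in 4 or more libraries, which kept 12573. Values of log2(CPM + 0.5) were fitted with limma (version 3.58.1, R version 4.3.3) using arrayWeights, a variance trend and Benjamini-Hochberg adjustment over all genes, with 0.1 as the threshold. Relations with the summed mt- CPM are Pearson's r and Spearman's rho over 10 libraries, with two-sided p from 100000 permutations, of which the smallest possible is 1e-05. The fit was tested on simulated data, where it recovered 50% of changes of log2 size 0.5 and 100% of size 1, with 13 false calls. The simulated libraries differed in depth but not in quality. Members were named by the 6 highest and 6 lowest fold changes, the 4 highest and 4 lowest levels per kb, fixed roles, and the 3 highest and 3 lowest r, and up to 3 genes of each pathway list by the smallest p. Mrpl20, Mrpl32, Mrpl36, Mrpl37, Mrpl46 and Mmp14 were chosen after their values were seen. Scaling, filters, pseudocount, weights, covariates, a replicate block and each library left out were tried as alternatives.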

Additional observations from a re-analysis of the deposited data

Results flagged for a closer look

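In groups of 5, 92 groups of values (41 named genes and 5 sums in each genotype) were screened for a library far from the other 4, and 6 stood apart by Dixon's criterion, where chance alone gives about 1 in 20. Mrpl12 was 17.6 CPM in BMAL1 aKO replicate 1 against 8.42 to 9.82 CPM in the other 4. Mrpl23 was 18.5 CPM in BMAL1 aKO replicate 2 against 11 to 13.1 CPM, and Mrpl17 was 18.6 CPM in the same library against 15.6 to 16.4 CPM. Mrps7 was 28.4 CPM in BMAL1 aKO replicate 4 against 26.2 to 26.8 CPM. In Cre- replicate 2, the library with the highest mt- share, Mrpl27 was 23.9 CPM against 16.2 to 17.9 CPM and Mrps36 was 13.6 CPM against 8.89 to 9.42 CPM. The cause of these values was not tested.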

How the results depend on the processing

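No member passed the threshold in 26 of 27 alternatives. The exception, chosen after seeing the data, left out BMAL1 aKO replicate 3 with weights by REML, where 844 genes passed, 3 members among them, Mrpl52 (log2 fold change 0.61, adjusted p = 0.0704 with limma), Mrps24 (0.35, adjusted p = 0.0779) and Mrpl27 (0.39, adjusted p = 0.0791). The members' median log2 fold change was 0.13 with TMM scaling and no sample quality weights, and 0.03 to 0.12 when 1 library was left out. The r of the summed level with the mt- sum was 0.77 over reads outside mt- genes, 0.80 with TMM scaling and 0.18 to 0.39 when 1 library was left out. Of all genes 21 passed, against 4 without weights, 4 with TMM scaling and no weights, 42 with weights by REML, 9 with log2 Xist as a covariate, 39 with the log2 mt- sum as a covariate, 11 at a threshold of 0.05, and 1 to 72 when 1 library was left out, the lowest without Cre- replicate 1 and the highest without BMAL1 aKO replicate 3. With the replicate number as a block 5 genes passed, 2 without weights, and 0 members. Same-numbered libraries had r of -0.63 to 0.36 between their deviations from the group means. Whether the numbers pair libraries cannot be told from these r. Of 41 named members, 20 kept their direction in all 26 fits, among them 10 of the 12 with the highest or lowest fold changes, Mrpl38 and Mrps12 being the exceptions. edgeR's quasi-likelihood test was not run, and voomWithQualityWeights was the test made on recovered reads. Members had 44 to 2455 reads in a library, and a p that misses the threshold does not show equal levels.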
